A study of Arabidopsis thaliana with 2 samples.

Results

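Small nuclear RNA (snRNA) and small nucleolar RNA (snoRNA) loci were examined in mature pollen of Arabidopsis thaliana. They are the 84 loci whose annotated type in both deposited tables is small nuclear or small nucleolar RNA, 13 snRNA and 71 snoRNA loci of 33322 loci in all, and none of these was left out. The RefSeq annotation of the genome holds 369 snRNA and snoRNA loci, of which these 84 are listed, and no U5 locus is among the 13. Shares of reads given here therefore cover only part of each class. RNA sequencing was done on 1 library of Col-0 pollen and 1 of Ler-0 pollen, so the differences given here have no check by replicates and no test was made. Col-0 is the ecotype of the reference genome and Ler-0 is another laboratory ecotype. Per the labels' protocols, both sets of plants grew in long days at 22 °C, pollen was shaken out of open flowers for 3 min and passed through a 30 µm mesh, and the libraries were made from total RNA after depletion of rRNA. The series concerns small RNAs of transposons and genome dosage, and its labels give no question for this pair of libraries beyond the ecotypes.

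snRNAs are the RNA parts of the spliceosome. U1 pairs with the 5′ splice site of an intron, U2 with the branch site, and U6, brought in by U4, takes over the 5′ splice site and forms part of the catalytic centre. A rare class of introns uses a minor spliceosome, in which U12 and U6acat stand in for U2 and U6. snoRNAs work in the nucleolus. Box C/D snoRNAs carry a C box (TGATGA) near the 5′ end and a D box (CTGA) near the 3′ end and guide methylation of ribosomal RNA, box H/ACA snoRNAs guide pseudouridylation, and U3 is a box C/D RNA needed to cut the precursor of 18S rRNA. Plant snRNA genes have an upstream sequence element and a TATA box, and the distance between them is known to differ between genes read by RNA polymerase II (U1, U2, U4) and by RNA polymerase III (U6, and in plants U3).

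RNAs on which the results turn are shown here, since their conserved parts identify them. Sequences are of the reference genome, in DNA letters and 5′ to 3′, from the RefSeq assembly TAIR10.1, whose nuclear chromosomes are those of TAIR10. Capitals mark the part that pairs with the 5′ splice site in U1.5 and with the branch site in U2.6 and U12. U1.5 is at chr1:2538076-2538237 (minus strand), U2.6 at chr3:21004495-21004689 (plus) and U12 at chr1:22603121-22603295 (plus).
U1.5: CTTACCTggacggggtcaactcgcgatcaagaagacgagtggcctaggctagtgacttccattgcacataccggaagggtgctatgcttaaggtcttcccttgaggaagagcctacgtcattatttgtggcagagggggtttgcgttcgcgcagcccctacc
U2.6: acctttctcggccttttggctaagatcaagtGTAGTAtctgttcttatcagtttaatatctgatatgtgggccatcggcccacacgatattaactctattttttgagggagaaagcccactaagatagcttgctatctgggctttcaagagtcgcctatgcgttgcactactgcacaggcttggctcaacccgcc
U12: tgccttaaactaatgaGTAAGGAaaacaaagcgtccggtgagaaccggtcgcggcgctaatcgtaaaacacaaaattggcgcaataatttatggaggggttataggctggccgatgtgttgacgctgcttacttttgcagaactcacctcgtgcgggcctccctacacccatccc

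The next set shows why the snRNA loci fall into groups by promoter. Each line holds the 90 bases before the start of the RNA as listed, annotated or aligned. The core of the upstream sequence element (CCCACATCG) and the TATA match (TATAAA or TATATA) are in capitals. The true 5′ ends were not determined, so the last bases of a line may belong to the RNA. Positions counted from the start carry that uncertainty, and distances between the core and the TATA match do not. The positions are chr1:2538238-2538327 (minus strand) for U1.5, chr3:21004405-21004494 (plus) for U2.6, chr3:2178344-2178433 (minus) for U4.2, chr1:22603031-22603120 (plus) for U12, chr3:4561022-4561111 (plus) for U6-26, chr5:18787307-18787396 (plus) for U6-29 and chr3:4951507-4951596 (plus) for U6-1.
U1.5: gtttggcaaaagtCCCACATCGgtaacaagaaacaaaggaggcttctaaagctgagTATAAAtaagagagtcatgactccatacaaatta
U2.6: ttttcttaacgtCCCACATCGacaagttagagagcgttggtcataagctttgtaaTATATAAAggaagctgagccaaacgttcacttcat
U4.2: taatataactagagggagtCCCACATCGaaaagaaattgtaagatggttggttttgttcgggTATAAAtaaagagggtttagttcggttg
U12: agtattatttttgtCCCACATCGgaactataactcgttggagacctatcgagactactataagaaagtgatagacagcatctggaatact
U6-26: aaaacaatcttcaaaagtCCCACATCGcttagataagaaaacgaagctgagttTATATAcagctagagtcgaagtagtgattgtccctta
U6-29: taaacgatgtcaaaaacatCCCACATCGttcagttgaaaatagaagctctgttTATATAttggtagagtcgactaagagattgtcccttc
U6-1: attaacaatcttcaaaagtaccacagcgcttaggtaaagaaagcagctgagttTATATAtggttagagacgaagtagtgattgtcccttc

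Searched on both strands in the 250 bases before the RNA start, the element's core was present at 11 of 13 snRNA loci (84.6%). U6-1 and U6acat had no match in this window. Over 33321 loci the share was 0.162%, but there the window lay before the listed start. The listed spans of the U2, U4 and U6 loci begin upstream of the cores found, which that window misses. The shares are therefore not on equal terms. From the end of the core to the TATA match lay 34 bases in U1.5, U4.2 and 5 of the U2 loci and 33 in U2.5, but 26 in U6-26 and 25 in U6-29. U12 had the core at -76 and no TATA match within 45 to 20 bases of the RNA. The listed span of U6acat starts upstream of its RNA and holds the core itself, 24 bases before a TATA match. The spans of the U3 loci also hold the core, 24 bases before a TATA match in U3B and 26 in U3D. The loci read by RNA polymerase III thus had the shorter distance, 24 to 26 bases, wherever both elements were found. A match is a description of the sequence and does not show that a factor bound there.

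**Figure D1:**
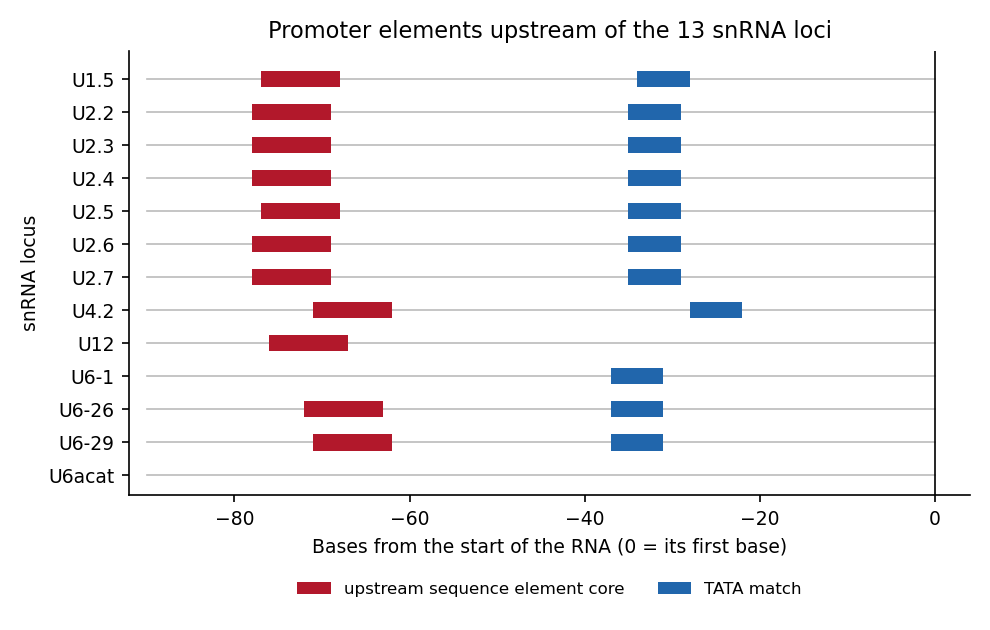
Promoter elements of the 13 snRNA loci. Each row is a locus and the horizontal axis gives bases from the first base of the RNA as listed, annotated or aligned. Red bars are the core of the upstream sequence element, present at 11 loci, and blue bars the TATA match. The distance between the bars was 33 to 34 bases in U1, U2 and U4 loci and 25 to 26 in the U6 loci that have both.

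The Ler-0 library held far more snRNA than the Col-0 library. snRNA loci carried 5612 of 76488187 reads in Col-0, or 0.00734% (95% interval 0.00715% to 0.00753%), and 66909 of 88952509 reads in Ler-0, or 0.0752% (0.0746% to 0.0758%), a share 10.3 times as high (9.98 to 10.5). Intervals here and below are exact (Clopper-Pearson for shares and ratios, Poisson for levels) and cover counting error alone, as PCR copies of a molecule are counted as reads of their own. All 13 snRNA loci were expressed, meaning 1 FPKM (reads scaled to the length of the gene span and to the depth of the library) or more in either library. Their median centred log2 ratio, Ler-0 over Col-0, was 3.11, against 0.06 over all 9562 expressed loci. This ratio is taken on FPKM + 1, less its median over the genes that reach 1 FPKM in each library, so it understates the ratio of weak loci. By it, 9 of 13 snRNA loci stood 4-fold or more above Col-0 in the Ler-0 library, against 3.44% of all expressed loci, and 0 were at least 4-fold higher in Col-0, against 2.22%. With a pseudocount of 5 the first count was 7 (125 over all expressed loci), and without the loci that overlap another locus it was 4 of 6. In whole-pollen RNA, fewer cells of a type and less RNA per cell cannot be told apart.

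Other structural RNA loci also differed between the libraries. Reads on the 4 ribosomal RNA loci were 0.355% of all for Col-0 and 1.1% for Ler-0, a ratio of 3.09, although the RNA was depleted of rRNA, and those on the 631 tRNA loci were 0.00273% and 0.0656%, a ratio of 24.1. Protein-coding loci held 98.2% and 97.2%. Pollen markers were strong in both libraries (6 of 6 expressed, at 206 to 5875 FPKM). They summed to 10240 FPKM for Col-0 and 6160 for Ler-0, with a centred ratio above 0 at 2 and below 0 at 4. Markers of green tissue were expressed at 5 of 5, with a summed level of 48.8 FPKM for Col-0 and 54.1 for Ler-0. Their centred ratio was above 0 at 3 and below 0 at 2. None (0) of 4 tapetum markers reached 1 FPKM. The sperm genes MGH3 and GCS1 summed to 60.6 FPKM for Col-0 and 142 for Ler-0, a difference in the same direction as that of most snRNA loci. Most of the sum was MGH3 (58.0 and 138 FPKM), with GCS1 at 2.61 and 4.07. That direction was not particular to sperm genes, as the 2 pollen and 3 green-tissue markers above 0 shared it, against 4 and 2 below. The part of RNA preparation, of rRNA depletion or of sperm RNA in the snRNA difference was not tested, and with 1 library each ecotype and preparation cannot be told apart.

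**Figure D2:**
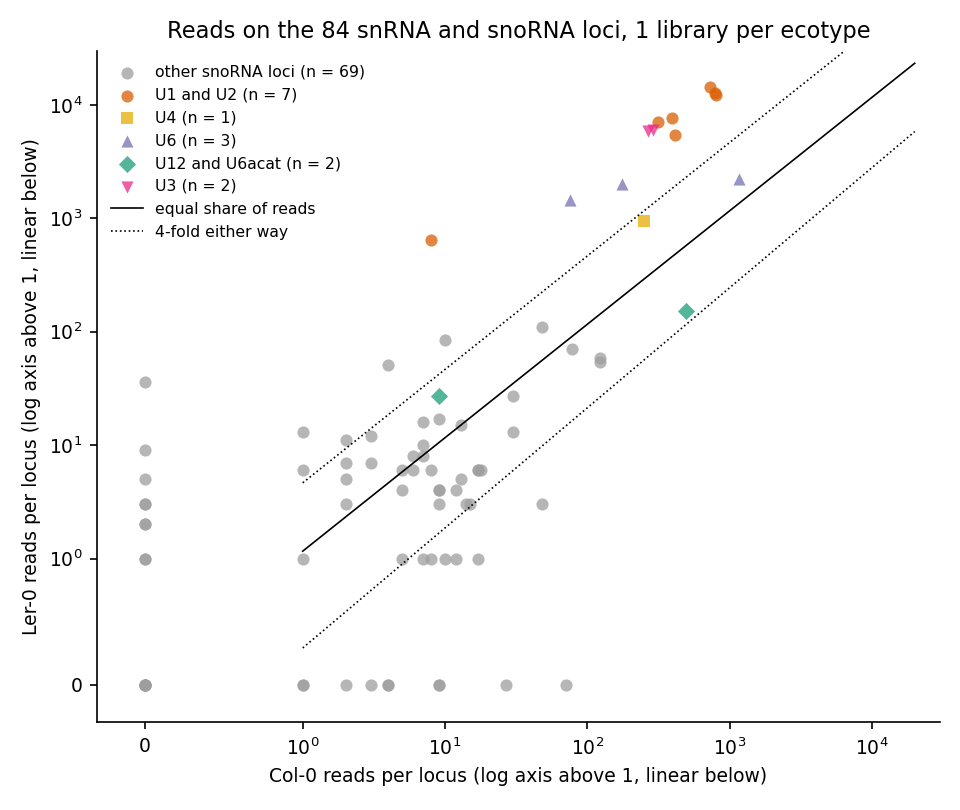
Reads on each of the 84 loci in the Col-0 library (horizontal) and the Ler-0 library (vertical), both on log axes above 1 read and linear below. The solid line marks an equal share of the library's reads and the dotted lines a 4-fold difference in that share, with no pseudocount. U1, U2 and U3 loci lie above the upper dotted line, U12 lies below the solid line, and the other snoRNA loci lie low and on either side.

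U1.5 (AT1G08115), which encodes the RNA that recognises the 5′ splice site, had the highest FPKM of all members in both libraries. It held 802 reads (65.1 FPKM, interval 60.7 to 69.8) for Col-0 and 12287 (858 FPKM, 843 to 873) for Ler-0, a ratio of 13.2 (12.3 to 14.2). Its listed span of 162 bases, taken here as the RNA, is shorter than the 165 bases of the RefSeq entry, whereas the spans of the U2, U4 and U6 loci are 2.83 to 9.07 times as long as the RNA. FPKM divides by that span, so levels per length between these loci understate the longer ones.

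U2, the branch-site RNA, has 6 listed loci, and each was at least 4-fold higher in Ler-0. U2.6 (AT3G56705) held 734 reads (17.5 FPKM) for Col-0 and 14386 (294 FPKM) for Ler-0, a ratio of 16.9 (15.7 to 18.2). U2.4 (AT3G56825) held 787 (11.7 FPKM) and 12692 (162 FPKM), a ratio of 13.9 (12.9 to 14.9). These were the strongest U2 loci in both libraries. U2.3 (AT3G57765) went from 392 reads (5.89 FPKM) for Col-0 to 7640 (98.7 FPKM) for Ler-0, a ratio of 16.8 (15.1 to 18.6). U2.5 (AT5G09585) went from 316 (5.50 FPKM) to 7004 (105 FPKM), a ratio of 19.1 (17.0 to 21.4). The intervals of U2.6, U2.3 and U2.5 overlap, and that of U2.4 lies below them. U2.7 (AT5G61455) had 411 reads (6.47 FPKM) and 5471 (74.1 FPKM), a ratio of 11.5 (10.4 to 12.7), whose interval lies below those of the other U2 loci. U2.2 (AT3G57645) stood apart by its level, with 8 reads (0.121 FPKM) for Col-0 and 650 (8.48 FPKM) for Ler-0, a ratio of 69.9 (35.3 to 163).

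The U2 RNAs are close copies. Over 195 aligned bases they shared 93.3% to 98.5%, the most similar being U2.3 and U2.4, which differ at 3 positions. How the authors placed reads that match several copies is not given in the sources used here, so the split of reads among U2 loci is uncertain, while the sum over the family (2648 reads for Col-0, 47843 for Ler-0, a ratio of 15.5, 14.9 to 16.2) is less so. U2.2 is no closer to the other U2 RNAs than they are to one another, with 93.8% to 97.4% identity.

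U4 and U6 differed more among themselves. U4.2 (AT3G06900), the RNA that escorts U6, held 249 reads (5.68 FPKM) for Col-0 and 955 (18.7 FPKM) for Ler-0, a ratio of 3.30 (2.87 to 3.81), and stayed under 4-fold. Of the U6 loci, U6-29 (AT5G46315) held 76 reads (1.09 FPKM) and 1448 (17.9 FPKM), a ratio of 16.4 (13 to 20.9). U6-1 (AT3G14735) held 176 (2.91 FPKM) and 1994 (28.3 FPKM), a ratio of 9.74 (8.35 to 11.4). U6-1 is the U6 locus with no exact upstream core. Its FPKM in Ler-0 was the highest of the 3, though its interval (27.1 to 29.6 FPKM) overlaps that of U6-26 (26 to 28.2). By reads in Ler-0, U6-26 (2204), whose listed span is longer, stood above U6-1 (1994). U6-26 (AT3G13855), much used as a promoter for guide RNAs in plants, held 1159 reads (16.6 FPKM) and 2204 (27.1 FPKM), a ratio of 1.64 (1.52 to 1.76), the lowest ratio of the major spliceosomal RNAs.

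The U6-26 value covers more than U6. Its listed span of 916 bases is 9.07 times as long as the RNA and overlaps 3 coding loci. Its first 366 bases lie in LBD22 (AT3G13850), on the same strand, a LOB-domain gene at 66.6 FPKM for Col-0 and 53.3 for Ler-0. The small locus AT3G13857, which covers the whole U6 RNA on the same strand, held 154 reads for Col-0 and 1938 for Ler-0, a ratio of 10.8. That ratio is near the 9.74 of U6-1 and far from the 1.64 of U6-26. U6-26 thus held 1005 more reads than AT3G13857 for Col-0 and 266 more for Ler-0, and where in the span those reads lie cannot be read from values per locus.

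Of the minor spliceosome, U12 went the other way, while the ratio of U6acat was within the range of the U4 and U6 loci. U12 (AT1G61275), which pairs with the branch site of minor introns, held 493 reads (37.0 FPKM, 33.8 to 40.5) for Col-0 and 151 (9.76 FPKM, 8.26 to 11.4) for Ler-0. It was the only snRNA locus that was higher in Col-0, by 3.8 times as a plain ratio, and its centred log2 ratio of -1.89 fell just short of 4-fold. In Col-0 it was second in FPKM only to U1.5 among the 84 loci, but FPKM understates the loci with longer spans. By reads in Col-0, U6-26 (1159), U1.5 (802), U2.4 (787) and U2.6 (734) stood above U12. U6acat (AT5G40395) held 9 reads (0.568 FPKM) and 27 (1.47 FPKM), a ratio of 2.58 (1.18 to 6.24), so at this depth its ratio is known only loosely. By BLAST (at least 60 bases at 90% identity) no locus of another type held a copy of U12, and its span overlaps no other locus.

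**Figure D3:**
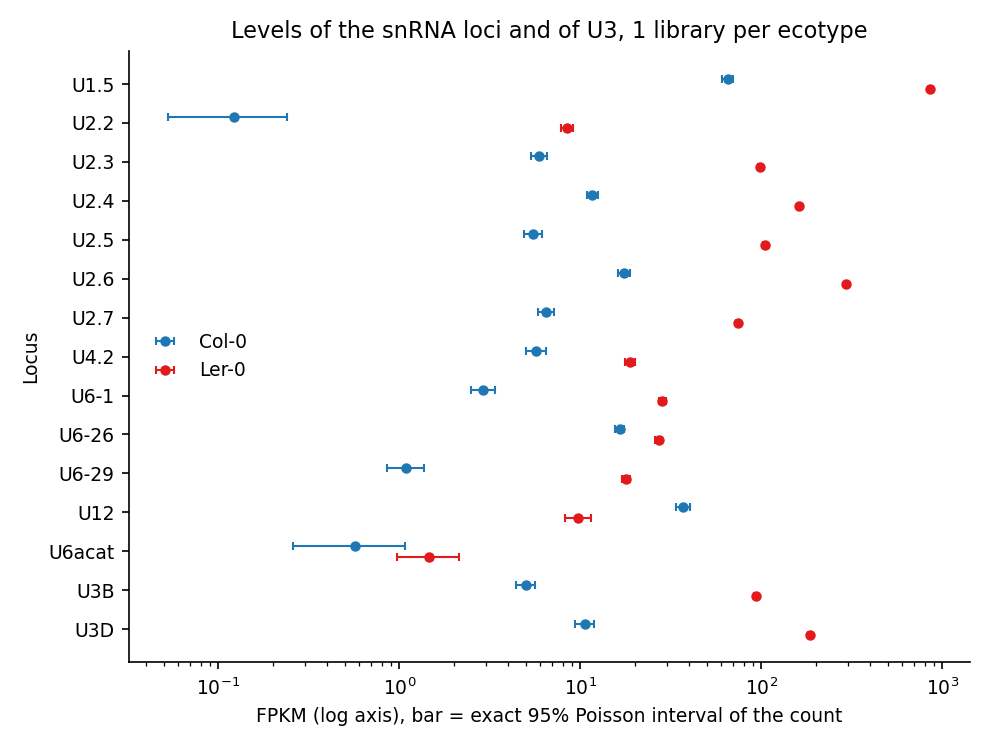
FPKM of the 13 snRNA loci and the U3 loci on a log axis, blue for the Col-0 library and red for the Ler-0 library, with exact 95% Poisson intervals of the counts. Ler-0 is higher at 14 of 15 loci. U12 alone is higher in Col-0, at 37.0 against 9.76 FPKM.

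snoRNA loci as a class held 1466 reads of Col-0 (0.00192%) and 12541 in Ler-0 (0.0141%), a share 7.36 times as high (6.97 to 7.77). That higher share rested on U3. U3B and U3D together held 559 reads in Col-0, 38.1% of the class, and 11795 in Ler-0, 94.1%. The other 69 loci held 907 reads for Col-0 and 746 for Ler-0, a ratio of 0.707 (0.641 to 0.780), which is the opposite direction. Of the 71 snoRNA loci 39 were expressed, 5 of them with 4-fold or more in favour of Ler-0 and 3 with 4-fold or more in favour of Col-0, 12.8% and 7.69% of those expressed, against 3.44% and 2.22% of all expressed loci. With a pseudocount of 5 these counts were 2 and 0 (125 and 77 over all expressed loci), and with 0.1 they were 7 and 9 (750 and 580).

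U3B (AT5G53902) held 268 reads (5.0 FPKM) for Col-0 and 5849 (93.8 FPKM) for Ler-0, a ratio of 18.8 (16.6 to 21.3). U3D (AT5G54075) held 291 (10.6 FPKM) and 5946 (186 FPKM), a ratio of 17.6 (15.6 to 19.8). Both ratios lie in the range of the U2 loci. The U3 loci share a stretch of 246 aligned bases at 97.97% identity, so their reads cannot be told apart with certainty, and the FPKM of U3B is lower because its listed span is longer. The shared stretch of U3D, at chr5:21945377-21945620 (minus strand), is shown because it is what the U3 loci, with most snoRNA reads in Ler-0, have in common.
U3D: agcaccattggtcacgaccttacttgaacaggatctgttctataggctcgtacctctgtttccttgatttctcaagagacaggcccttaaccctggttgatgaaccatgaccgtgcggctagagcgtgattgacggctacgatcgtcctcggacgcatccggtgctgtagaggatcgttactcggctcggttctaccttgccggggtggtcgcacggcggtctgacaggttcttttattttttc

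Several snRNA and U3 loci overlap coding loci that carry nearly the same reads. U3D held 291 and 5946 reads in Col-0 and Ler-0, and HSFA9 (AT5G54070), a heat shock factor gene on the opposite strand, held 290 and 5946. U3B held 268 and 5849, and AT5G53905, also opposite, 271 and 5853. For U4.2 with AT3G06895 the counts were 249 and 955 against 245 and 949. U2.3 and AT3G57770 held 392 and 7640 against 317 and 7335. In each of these pairs the ratio of the coding locus was close to that of the small RNA, 17.6 for HSFA9, 18.6 for AT5G53905, 3.33 for AT3G06895 and 19.9 for AT3G57770. The same reads may therefore stand on both loci, whatever the strand, and the values of such coding loci cannot be told apart from those of the small RNA. The coding locus need not hold the whole RNA, as AT3G06895 has 101 of the 153 bases of U4.2 and AT3G57770 has 75 of the 195 of U2. Where the overlap did not reach the RNA the counts parted. U2.7, which shares 19 bases with MIM (AT5G61460), a chromosome maintenance gene, held 411 and 5471 reads, and MIM held 1521 and 480.

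**Figure D4:**
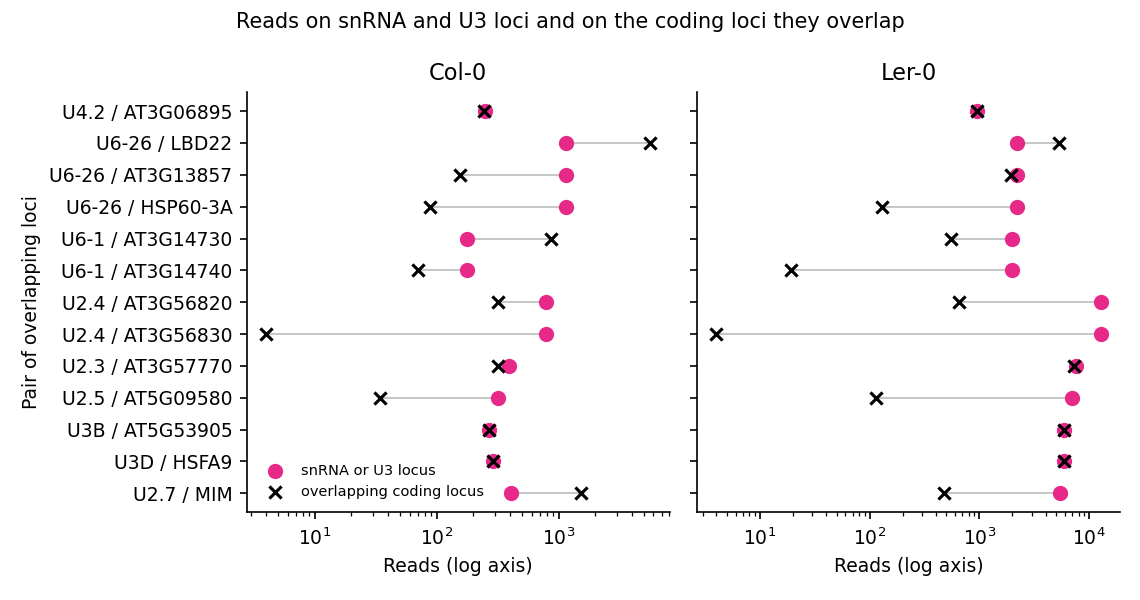
Reads on the snRNA and U3 loci that overlap a coding locus (pink circles) and on each coding locus whose span overlaps them (black crosses), in Col-0 (left) and Ler-0 (right), on log axes. Circle and cross coincide for U4.2, U3B and U3D and nearly so for U2.3, and U6-26 meets AT3G13857 in Ler-0 but not in Col-0.

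Copies of these RNAs elsewhere in the genome gave a further view. With BLAST, 12 other loci held a stretch of at least 60 bases that was at least 90% identical to U1, U2, U3, U4 or U6, and 7 of them overlap no member. AT1G16820 contains 75 bases identical to U2 in antisense and held 550 reads for Col-0 and 12733 for Ler-0, a ratio of 19.9. AT5G53740, with a U3 stretch in antisense at 95.9% identity, held 395 and 6162, a ratio of 13.4. The first ratio lies within the range of the U2 loci and the second below those of U3B and U3D. AT3G61198, PRIN2 and AT4G00975, with U3 stretches in sense, held 17 and 203, 331 and 1213, and 34 and 23 reads. The rest did not share these ratios, for AT4G23420, with a U1 copy at 95.7% identity, held 1136 and 553 reads, and MBR1, with a U6 stretch at 92.9%, held 227 and 342. Whether reads at these loci are their own, were placed there from the listed snRNA and U3 loci or come from genes that are not listed was not tested.

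The other 69 snoRNA loci were weak in both libraries. Their median was 6 reads for Col-0 and 4 for Ler-0, 6 had no read in either, 9 had reads in Ler-0 only and 10 in Col-0 only. A count of 0 allows up to 3 reads, so a locus at 0 is not shown to be silent. Among the 37 that were expressed, 25 lay below the centre and 12 above, with a median centred log2 ratio of -0.72. A locus could pass this filter through either library alone, and 30 passed in Col-0 but 18 in Ler-0. With no filter the median over all 71 snoRNA loci, U3 included, was -0.09, so the lower median depends on the filter. The 52 loci with both a C box in the first 20 bases and a D box in the last 10 held 523 reads for Col-0 and 486 for Ler-0, and the remaining 17 held 384 and 260. Among all 33322 loci 0.222% had both boxes, against 75.4% of these 69.

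The 6 snoRNAs other than U3 that were past 4-fold are shown here, with the C box and, where it was found, the D box in capitals. AT3G21805 lies at chr3:7682362-7682452 (plus strand), AT1G74456 at chr1:27984745-27984826 (minus), AT5G66562 at chr5:26567370-26567453 (plus), AT4G26365 at chr4:13332834-13332911 (minus), AT3G47347 at chr3:17445810-17445886 (plus) and AT1G12015 at chr1:4058487-4058576 (plus).
AT3G21805: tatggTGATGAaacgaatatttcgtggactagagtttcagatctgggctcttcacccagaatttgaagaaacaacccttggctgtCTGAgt
AT1G74456: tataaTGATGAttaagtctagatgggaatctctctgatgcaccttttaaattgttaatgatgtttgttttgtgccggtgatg
AT5G66562: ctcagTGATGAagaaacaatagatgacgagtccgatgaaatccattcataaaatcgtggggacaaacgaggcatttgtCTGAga
AT4G26365: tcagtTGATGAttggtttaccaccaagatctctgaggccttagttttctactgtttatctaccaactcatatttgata
AT3G47347: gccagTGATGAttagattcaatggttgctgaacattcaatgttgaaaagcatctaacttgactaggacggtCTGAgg
AT1G12015: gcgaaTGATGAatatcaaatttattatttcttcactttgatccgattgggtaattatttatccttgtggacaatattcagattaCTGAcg

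AT3G21805 had 71 reads (10.3 FPKM) for Col-0 and 0 for Ler-0, where 0 reads allow up to 0.375 FPKM, so against that floor it was at least 27.5-fold higher in Col-0. The exact interval of the ratio, which also covers the counting error of the 71 reads, starts at 21.8-fold. AT5G66562 had 27 reads (4.25 FPKM) and 0, at least 10.5-fold higher there against the same floor of 3 reads, with an interval that starts at 7.94. AT1G74456 had 48 (7.75 FPKM) and 3 (0.416 FPKM), a ratio of 0.0537 (0.0107 to 0.167). The first and the last of these were also among the 10 strongest snoRNA loci by mean FPKM. Relatives of AT3G21805 and AT5G66562 had some reads left in Ler-0, with 1 exception. SNOR37-2, 86.2% identical to AT3G21805, had 17 reads for Col-0 and 6 for Ler-0. AT5G66564, which lies next to AT5G66562 and is 96.4% identical to it, had 17 and 6. At that identity the split of reads between AT5G66562 and AT5G66564 is uncertain. The exception was AT3G50825, 91.7% identical to AT5G66562, with 4 and 0. Weaker loci of the same direction were AT2G35742 (17 reads in Col-0, 1 in Ler-0), AT4G13245 (12 and 1) and AT2G05765 (9 and 0).

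In the other direction, AT4G26365 had 0 reads for Col-0 and 36 (5.26 FPKM) for Ler-0, at least 10.3-fold higher in Ler-0 against that floor, with an interval that starts at 7.97. AT3G47347 had 10 (1.72 FPKM) and 84 (12.4 FPKM), a ratio of 7.22 (3.74 to 15.6). AT1G12015 had 4 (0.588 FPKM) and 51 (6.44 FPKM), a ratio of 11 (4.03 to 41.8). All 3 carry a C box, and the last of these also a D box, as does AT3G47347. AT1G19376 had 1 and 13 reads, under the 4-fold rule.

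The remaining strong snoRNAs stood level or lower, with 1 exception. The box H/ACA RNA SNOR77 (AT5G10572) had 123 reads (12.2 FPKM) for Col-0 and 59 (5.03 FPKM) for Ler-0, a ratio of 0.413 (0.297 to 0.567). SNOR111 (AT1G12013), also box H/ACA, had 78 (7.91 FPKM) and 71 (6.19 FPKM), a ratio of 0.783 (0.559 to 1.09) whose interval includes 1. AT1G74453 had 123 (14.8 FPKM) and 54 (5.57 FPKM), a ratio of 0.378 (0.269 to 0.524). AT4G39366 had 48 (5.27 FPKM) and 111 (10.5 FPKM) and was the strongest snoRNA after U3 in Ler-0 by reads. The 7 loci that the annotation names as other box C/D RNAs held 73 and 56 reads together.

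**Figure D5:**
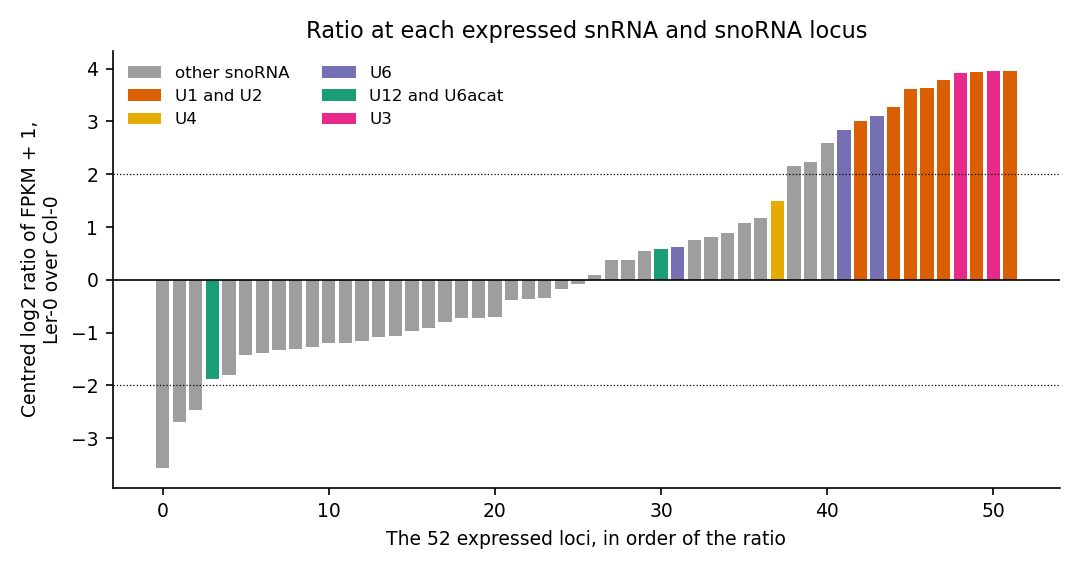
Centred log2 ratio (Ler-0 over Col-0, FPKM + 1) at the 52 expressed loci in order, coloured by family, with dotted lines at 4-fold. The 10 highest ratios are the U1, U2 and U3 loci and U6-29, and the negative side is made of snoRNA loci and U12.

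Plant snoRNA genes often lie in clusters that are copied into a common precursor. Of the 69 loci without U3, 41 stood in 16 clusters of members within 1 kb of each other on the same strand, and these held 549 reads for Col-0 and 533 for Ler-0, a ratio of 0.835 (0.740 to 0.942). The 28 that stood alone held 358 and 213, a ratio of 0.512 (0.430 to 0.608). Without AT3G21805, with 71 of the 358 reads of Col-0 and none (0) of those of Ler-0, that ratio was 0.638 (0.532 to 0.765), whose interval overlaps that of the clusters. Neighbours in a cluster did not always have like ratios. In the cluster of SNOR111 and AT1G12015, the former had 78 and 71 reads and the latter 4 and 51. The interval of the ratio includes 1 for SNOR111 (0.559 to 1.09) and lies above it for AT1G12015 (4.03 to 41.8). In the cluster of AT4G39361 to AT4G39366, the last locus held 111 of 120 reads in Ler-0 and 48 of 71 in Col-0. The loci of this cluster are 90.7% to 94.1% identical to one another, so the split of reads among them is uncertain. The cluster of AT1G74453 and AT1G74456 was lower in Ler-0 at both, with 171 and 57 reads in sum. The telo box (AAACCCTA), common in promoters of plant ribosomal protein and snoRNA genes, stood in the 250 bases upstream of 15 of 44 snoRNA loci that are alone or first of a cluster (34.1%), against 6.24% of all loci, and the site II motif (TGGGCC or TGGGCT) upstream of 9 of 44 (20.5%), against 18.4%. The upstream core of snRNA genes was found at 2 of 69 snoRNA loci, the box C/D loci SNOR105 and SNOR108.

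Of the snoRNA loci 10 lie inside a coding gene, and they held 32 reads for Col-0 and 17 for Ler-0. U60.1F and U60.2F lie in introns of FIB1 and FIB2, which encode fibrillarin, the methyltransferase of box C/D particles. U60.1F had 1 read in each library and U60.2F had 0 in both, while FIB1 held 67 and 36 reads and FIB2 16 and 14.

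The proteins that work with these RNAs were measured by 46 genes in 5 lists, and 5 of the 46 were expressed. With FPKM + 1 hardly any of these genes could reach 4-fold, since SRD2 alone exceeded 3 FPKM, so a count of 0 past 4-fold says little, and all expressed loci gave 3.44% and 2.22%. The median centred log2 ratio of the 5 was -0.01, and the summed level of the 46 was 17.4 FPKM for Col-0 and 16.4 for Ler-0. U1-70K, a protein of the U1 particle, held 1.32 and 1.73 FPKM in Col-0 and Ler-0, and U1A, another, 1.70 and 1.80. LSM8, of the ring that binds U6, held 0.750 and 1.07. A gene for GAR1 (AT5G18180), of the H/ACA particle, held 1.40 and 1.03. SRD2, a subunit of the complex that activates snRNA genes, had the lowest ratio of the 5, with 3.14 FPKM for Col-0 and 1.71 for Ler-0, a ratio of 0.544 (0.487 to 0.607). The 13 genes of Sm proteins, which form the core ring of the U1, U2 and U4 particles, were all under 1 FPKM, at 0.0259 to 0.434. The SmD2 gene AT2G47640 had the highest plain ratio of the 46, with 3 reads and 27, a ratio of 7.74 (2.38 to 39.9), on few reads.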

How the data were processed

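Per the file headers, the authors deposited FPKM per locus for 1 Col-0 and 1 Ler-0 pollen library, with TAIR10 coordinates. Per the submitters' processing notes, Subread and TAIR10 were used. Treatment of multiply placed reads, of strand and of read pairs is not given in the sources used here. FPKM times span was a whole multiple of 1 step in 100% of values (tolerance 0.01), so reads were recovered. They summed to 76488187 and 88952509, and 1 FPKM in 1 kb equals 76.5 and 89.0 reads. A read may stand on several loci. TAIR10 is a Col-0 genome, so Ler-0 reads can match it less well.

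A locus was expressed at FPKM 1 in either library. The log2 ratio used a pseudocount of 1 and was centred on its median. There were no replicates and no p-values were computed. Intervals were planned for the case that whole reads could be recovered, and they use the recovered reads. Motifs were exact matches, and copies were sought with BLAST 2.17.0. All snRNA loci were named, and of snoRNA loci the leading 10 by mean FPKM, those with the 6 highest and the 6 lowest ratios among expressed loci, and all past 4-fold. Other loci were named for overlap, similarity or position, after their values were seen. Members and lists were chosen with earlier results of these data known. The 4-fold rule was tried on simulated reads, with changes only at loci of FPKM 10 or more and counting error alone. That trial therefore cannot speak for the weak snoRNA loci or for variation between replicates. Python 3.11.15 with pandas 2.3.3 and SciPy 1.17.1 was used. The listed spans of 79 of 84 loci equal those of TAIR10.1. Of the other 5, U1.5 was taken as listed. For the rest and their relatives the RNA was taken from the RefSeq span or by alignment to it.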

Additional observations from a re-analysis of the deposited data

How the results depend on the processing

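No paired analysis was possible because there is 1 library for each ecotype. Over 5 changes of pseudocount, centring or scaling, none (0) of the 29 named loci changed direction, and 12 crossed 4-fold, all with another pseudocount. The count of 9 snRNA loci 4-fold above Col-0 stood between 7 and 9, and at 10 with a 2-fold threshold, except that without members that overlap another locus 4 of 6 were above. snRNA loci higher in Col-0 numbered 0, and 1 (U12) at 2-fold. The median of the expressed snoRNA loci was -1.32 with a pseudocount of 0.1, and 0.81 over the 11 loci at FPKM 5 or more. With no filter it was -0.09 over all 71 snoRNA loci. snoRNA loci higher in Ler-0 numbered 2 with a pseudocount of 5, 3 without members that overlap another locus and 3 without U3. Those higher in Col-0 numbered 9 with a pseudocount of 0.1, 0 with 5, and 14 at 2-fold. The snRNA share ratio was 11.6 without U6-26 and U2.6 and 11.7 without overlapping members. The snoRNA share ratio was 4.83 without U3D, and turned to 0.716 without overlapping members and 0.707 without U3, a choice added after seeing the data. Both U3 loci overlap coding loci, and their removal is what these settings share. The median of the protein lists was 0.0015 with a pseudocount of 0.1, 0.054 with no centring and 0.092 when centred on genes at FPKM 10 or more, and no such gene reached FPKM 5, so that filter gave no median. The depth limits the snoRNA loci without U3, at a median of 6 and 4 reads.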
